A study of Mus musculus with 10 samples.

Results

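In foetal limb muscle, 10 genes of fatty acid synthesis and desaturation were followed, namely Fasn, Acly, Me1, Scd1, Scd2, Elovl5, Elovl6, Fads1, Srebf1 and Thrsp. They were taken by gene symbol from a table of 55401 genes, and all 10 were found and were above the filter on low values that 13363 genes passed. RNA-seq had been performed on limb muscle at ED18.5 after the skin and bones were removed, with 5 libraries in the GDM group and 5 in the CTR group. All foetuses were wild-type ICR mice. GDM dams had received 100 mg/kg streptozotocin, which destroys insulin-producing beta cells, at GD 6.5 and again at GD 12.5, and CTR dams had received citrate buffer on the same days. The study gives the foetuses as male, whereas sex and litter are not in the labels, and every p below measures only the spread between samples. The labels describe the tissue as a mixture of cells, and in such bulk samples fewer cells of a type and less RNA per cell cannot be told apart.

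Fatty acids are built in the cytosol from acetyl-CoA, which ATP citrate lyase (Acly) splits from citrate. Acetyl-CoA carboxylase turns it into malonyl-CoA, and fatty acid synthase (Fasn) joins these units into palmitate with reducing power from NADPH, part of which malic enzyme 1 (Me1) supplies. Palmitate is lengthened by elongases such as Elovl6, and stearoyl-CoA desaturases (Scd1, Scd2) place the first double bond, while Elovl5 and Fads1 act on polyunsaturated fatty acids taken from the diet or, in the foetus, from the mother. Srebf1 encodes the transcription factor SREBP-1, which drives most of these genes in liver and fat, and Thrsp encodes Spot 14, a small protein that accompanies lipogenesis in the same tissues.

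Levels are given as FPKM, fragment counts scaled to transcript length and to the mapped total of the library, and a gene was called changed at an adjusted p under 0.05 in limma on log2(FPKM + 1). In this test 5 of the 10 genes were called. Me1 and Thrsp fell in GDM muscle, Acly, Elovl5 and Fads1 rose, and Fasn, Srebf1, Elovl6, Scd1 and Scd2 did not pass. Of all tested genes 10.9% were called lower and 35.1% higher, so that 2 genes lower and 3 higher of 10 are to be read against those shares. The counts of called genes in the pathway and marker lists below are to be read against the same shares. The median log2 fold change of the 10 genes was 0.22, beside 0.15 over all tested genes. The 10 genes thus did not share a direction.

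The promoter sequences of 4 of the called genes are shown because these genes moved in opposite directions, Acly and Elovl5 upward and Me1 and Thrsp downward. Each runs from 250 bases before to 50 bases after the annotated start in RefSeq (GRCm38.p6), 5′ to 3′ on the strand of the gene. Where a gene had several annotated starts, only the most upstream was searched. Capitals mark CCAAT, which binds NF-Y, the GC box GGGCGG, which binds Sp1, and the E-box CACGTG, which binds USF and the MLX partners, on either strand. The windows are chr11:100527951-100528250 (minus strand) for Acly, chr9:77917115-77917414 (plus strand) for Elovl5, chr9:86695865-86696164 (minus strand) for Me1 and chr7:97417501-97417800 (minus strand) for Thrsp.
Acly: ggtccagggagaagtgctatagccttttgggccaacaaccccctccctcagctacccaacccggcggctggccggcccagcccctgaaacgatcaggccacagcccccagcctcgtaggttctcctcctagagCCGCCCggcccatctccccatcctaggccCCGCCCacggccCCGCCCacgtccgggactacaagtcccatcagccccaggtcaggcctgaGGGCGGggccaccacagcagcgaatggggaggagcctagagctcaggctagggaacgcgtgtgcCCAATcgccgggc
Elovl5: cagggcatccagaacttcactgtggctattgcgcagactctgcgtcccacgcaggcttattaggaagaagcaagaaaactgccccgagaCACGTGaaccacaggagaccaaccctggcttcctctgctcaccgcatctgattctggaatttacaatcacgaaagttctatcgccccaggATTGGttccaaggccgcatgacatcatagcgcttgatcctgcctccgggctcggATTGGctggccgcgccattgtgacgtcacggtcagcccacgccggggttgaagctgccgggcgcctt
Me1: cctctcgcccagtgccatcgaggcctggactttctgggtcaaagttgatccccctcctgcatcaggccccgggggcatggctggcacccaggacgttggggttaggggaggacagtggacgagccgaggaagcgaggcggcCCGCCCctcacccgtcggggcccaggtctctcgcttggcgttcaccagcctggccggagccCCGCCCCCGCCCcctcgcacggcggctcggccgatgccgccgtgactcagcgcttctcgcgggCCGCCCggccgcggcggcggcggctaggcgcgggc
Thrsp: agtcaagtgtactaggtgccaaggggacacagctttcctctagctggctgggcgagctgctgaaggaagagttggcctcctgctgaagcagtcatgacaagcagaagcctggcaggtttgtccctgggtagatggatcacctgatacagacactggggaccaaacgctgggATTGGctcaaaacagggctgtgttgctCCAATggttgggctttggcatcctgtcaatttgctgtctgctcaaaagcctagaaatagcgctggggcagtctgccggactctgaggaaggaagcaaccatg
The Acly window held 4 copies of GGGCGG and 1 of CCAAT, and the Elovl5 window held 2 copies of CCAAT and the only CACGTG among the members with a window. The Me1 window also held 4 copies of GGGCGG, 2 of them side by side, and no CCAAT, whereas Thrsp held 2 copies of CCAAT. Genes with 4 GC boxes and genes with 2 CCAAT copies were therefore found both among those that rose and among those that fell.

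RefSeq gave a window for 7 of the 10 genes, and Scd1, Scd2 and Fads1 had no entry. CCAAT was present in 5 of the 7, namely Acly, Elovl5, Thrsp, Srebf1 and Fasn, and in 37.4% of 32851 windows of the same length over the genome. Fasn held 3 copies, of which the last 2 overlap in the letters CCAATTGG. At least 2 copies were present in 11.7% of all windows. GGGCGG was present in 2 of the 7 and in 35.7% of all windows, and 4 or more copies in 5.49%. CACGTG was present in 1 of the 7 and in 7.15% of all windows, and TATAAA in none of the 7 and in 13.6% of all windows. The Elovl6 window held none of the motifs searched. These matches are letters in a window and were not tested as binding sites.

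**Figure D1:**
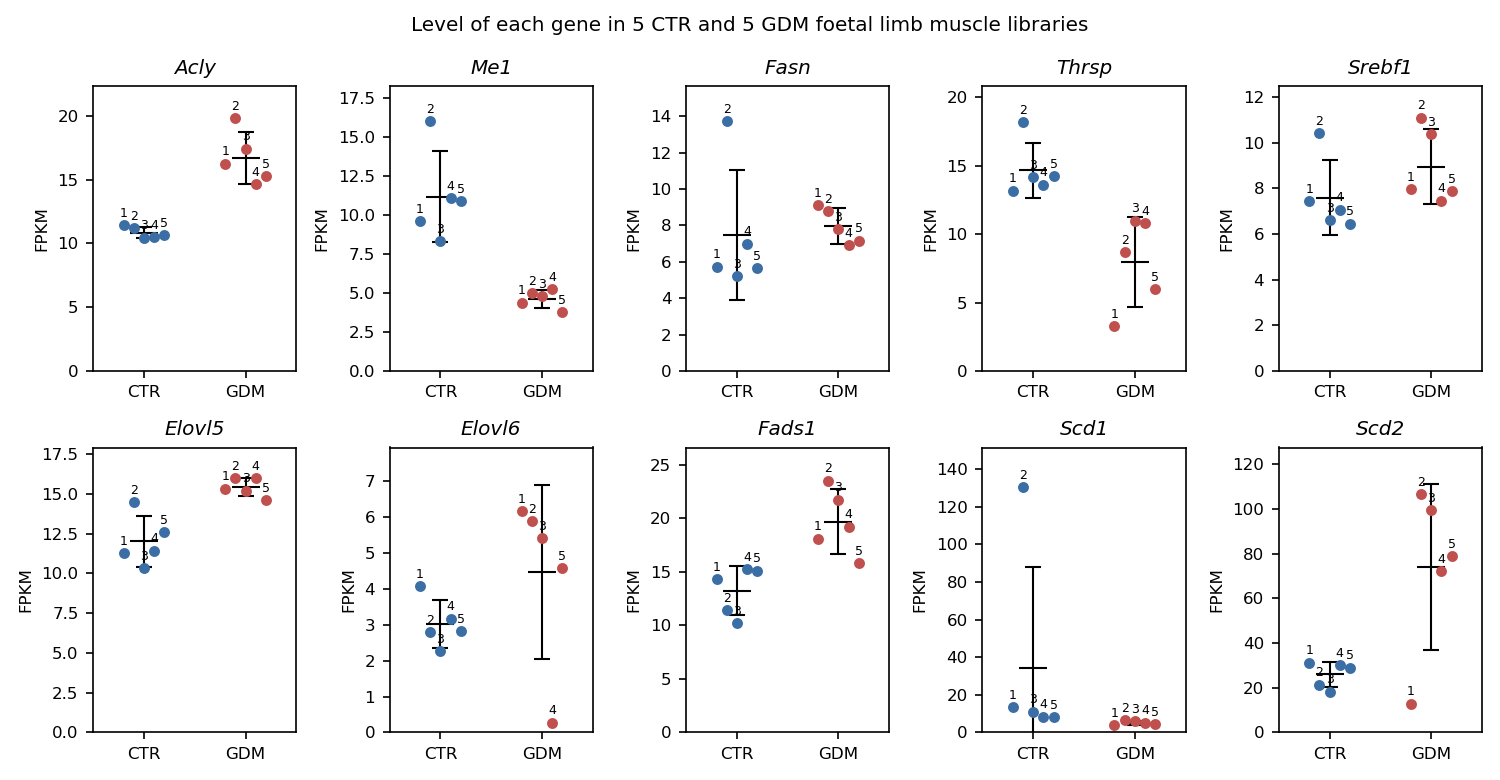
FPKM of the 10 genes in each library, with replicate numbers beside the points, the group mean as a horizontal line and the SD as a bar (n = 5 per group, cut at 0 for Scd1). Acly, Elovl5 and Fads1 lie higher and Me1, Thrsp and Scd1 lower in every GDM library, while CTR replicate 2 stands apart for Scd1 and Fasn, GDM replicate 1 for Scd2 and GDM replicate 4 for Elovl6.

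Among the genes that supply acetyl-CoA and NADPH, Acly rose and Me1 fell. Acly (ENSMUSG00000020917, chr11:100476353-100528000, minus strand, GRCm38) was at 16.2, 19.8, 17.4, 14.7 and 15.3 FPKM in GDM replicates 1 to 5. In CTR replicates 1 to 5 it was at 11.4, 11.2, 10.5, 10.5 and 10.7 FPKM. The groups did not overlap, and the CTR libraries lay closer together than the GDM libraries. The mean was 16.7 ± 2.05 FPKM in GDM and 10.8 ± 0.446 FPKM in CTR muscle (SD, n = 5 each), a ratio of 1.54 and a log2 fold change of 0.57 (SE 0.08, adjusted p = 0.00024, limma). The two-sided exact permutation test gave p = 0.0079, the smallest that 5 against 5 libraries can give.

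Me1 (ENSMUSG00000032418, chr9:86581371-86695953, minus strand) was at 4.38, 5.00, 4.80, 5.24 and 3.76 FPKM in GDM replicates 1 to 5. CTR replicates 1 to 5 were at 9.61, 16.0, 8.34, 11.1 and 10.9 FPKM. Every GDM library was below every CTR library, and CTR replicate 2 was the highest. The mean was 4.63 ± 0.585 against 11.2 ± 2.92 FPKM (SD, n = 5 each), and Me1 fell by 1.09 on the log2 scale (SE 0.15, adjusted p = 0.00023, limma). Without CTR replicate 2 the CTR mean was 9.99 ± 1.28 FPKM (SD, n = 4) and the log2 fold change was -0.96 (adjusted p = 0.00014, limma).

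The other genes of this supply were not called in either direction. Of 7 listed genes 6 were tested, and 0 passed in limma, with all libraries or without CTR replicate 2. At an unadjusted p under 0.05, 1 was higher (Me2, a mitochondrial malic enzyme, log2 fold change 0.20) and 0 were lower. After each library was scaled to the median ratio of its genes, 1 of them, Idh1, the cytosolic NADPH-forming isocitrate dehydrogenase, was called lower. For Acss2, which makes acetyl-CoA from acetate, the log2 fold change was 0.22 (adjusted p = 0.14), and for Slc25a1, the carrier that brings citrate out of mitochondria, it was -0.50 (adjusted p = 0.16). Slc25a1 was at 27.9 FPKM in CTR replicate 2 and at 7.34 to 11.3 FPKM in the other 9 libraries. Me3, a mitochondrial malic enzyme named after its values were seen, was below the filter, with a mean of 0.243 ± 0.068 FPKM in GDM libraries against 0.946 ± 0.296 FPKM in CTR libraries (SD, n = 5 each).

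Malonyl-CoA genes differed by isoform. Acacb, the carboxylase of muscle whose malonyl-CoA restrains fatty acid oxidation, fell by 1.38 on the log2 scale (adjusted p = 3e-05, limma), with means of 3.81 ± 0.867 FPKM in GDM and 11.4 ± 1.19 FPKM in CTR muscle (SD, n = 5 each). Acaca, the carboxylase that feeds Fasn, had means of 2.33 ± 0.354 and 2.13 ± 0.813 FPKM (SD, n = 5 each) and was not called (log2 fold change 0.12, adjusted p = 0.56). Mlycd, which degrades malonyl-CoA, was also called lower, and Mid1ip1, a relative of Thrsp that activates acetyl-CoA carboxylase, was not called (log2 fold change 0.27, adjusted p = 0.081). Of the 4 genes 2 were thus lower and 0 higher in limma, with 1 higher (Mid1ip1) at an unadjusted p under 0.05. Without CTR replicate 2 Acaca was called higher, as Fasn was, with a log2 fold change of 0.26 (adjusted p = 0.049), which made 2 lower and 1 higher.

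Fasn, the synthase itself (ENSMUSG00000025153, chr11:120805846-120824547, minus strand), had nearly the same mean in both groups. It was at 9.12, 8.79, 7.79, 6.89 and 7.16 FPKM in GDM replicates 1 to 5. The 5 CTR replicates, in order, were at 5.73, 13.7, 5.21, 6.99 and 5.65 FPKM. The groups overlapped, with CTR replicate 2 above all other libraries and CTR replicates 1, 3 and 5 below every GDM library. The log2 fold change was 0.16 (95% interval -0.32 to 0.63, adjusted p = 0.58, limma), from means of 7.95 ± 0.977 and 7.46 ± 3.57 FPKM (SD, n = 5 each). Without CTR replicate 2 the CTR mean was 5.89 ± 0.762 FPKM (SD, n = 4), and Fasn was called higher in GDM muscle, with a log2 fold change of 0.38 (SE 0.10, adjusted p = 0.013, limma). GDM replicate 4 was then still below CTR replicate 4.

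Thrsp (ENSMUSG00000035686, chr7:97412938-97417730, minus strand) was at 3.29, 8.67, 11.0, 10.8 and 5.97 FPKM in GDM replicates 1 to 5. Its levels in CTR replicates 1 to 5 were 13.2, 18.2, 14.2, 13.6 and 14.3 FPKM. The groups did not overlap, and the GDM libraries were spread over a wider range, with replicate 1 lowest. Thrsp fell by 0.90 on the log2 scale (SE 0.26, adjusted p = 0.016, limma), and without CTR replicate 2 by 0.82 (adjusted p = 0.037). Without the filter on low values the same gene did not pass (adjusted p = 0.11).

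Srebf1 (ENSMUSG00000020538, chr11:60199089-60222581, minus strand) was at 7.96, 11.1, 10.4, 7.46 and 7.87 FPKM in GDM replicates 1 to 5. In CTR replicates 1 to 5 it was at 7.43, 10.4, 6.61, 7.07 and 6.45 FPKM. Only CTR replicate 2 reached into the GDM values. With all libraries the log2 fold change was 0.21 (95% interval -0.10 to 0.52, adjusted p = 0.24, limma), and without CTR replicate 2 it was 0.32 (adjusted p = 0.045). In that comparison the groups were only just apart, with 7.46 FPKM in the lowest GDM and 7.43 FPKM in the highest CTR library.

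Other regulators of lipogenesis showed the largest change in Mlxipl, which encodes ChREBP, a transcription factor that responds to glucose metabolites. Mlxipl fell by 1.58 on the log2 scale (adjusted p = 1.5e-05, limma), with means of 0.843 ± 0.242 FPKM in GDM and 4.50 ± 0.723 FPKM in CTR libraries (SD, n = 5 each). CTR replicates 1 to 5 were at 3.70, 4.92, 3.82, 5.39 and 4.67 FPKM. All GDM libraries lay far below, at 0.560, 0.620, 1.07, 0.900 and 1.07 FPKM. Mlx, its dimer partner, was called higher (log2 fold change 0.28, adjusted p = 0.0033), as were Srebf2, which encodes the SREBP of cholesterol synthesis (0.50, adjusted p = 0.011), and Usf1, an E-box factor (0.38, adjusted p = 0.046). Of 12 regulators tested 1 was lower, 3 were higher and 8 did not pass, beside 10.9% of all tested genes lower and 35.1% higher. Only Mlxipl and the LXR gene Nr1h2 were called lower once the libraries were scaled to their median ratio, and 0 regulators were called higher there. At an unadjusted p under 0.05 in limma, 6 regulators were lower and 1 was higher after this scaling. Usf1 was not called without CTR replicate 2 (adjusted p = 0.062), and Nr1h3, the other LXR gene, was then called lower (log2 fold change -0.32, adjusted p = 0.042).

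Of the elongases among the 10 genes, Elovl5 rose and Elovl6 was not called. Elovl5 (ENSMUSG00000032349, chr9:77917364-77984519, plus strand), which lengthens polyunsaturated fatty acids, was at 15.3, 16.0, 15.2, 16.0 and 14.6 FPKM in GDM replicates 1 to 5. The 5 CTR replicates, in order, were at 11.3, 14.5, 10.3, 11.4 and 12.6 FPKM. The lowest GDM library was just above CTR replicate 2, and the GDM libraries were closely spaced. The means were 15.4 ± 0.582 and 12.0 ± 1.60 FPKM (SD, n = 5 each), a log2 fold change of 0.34 (SE 0.08, adjusted p = 0.0056, limma). After median ratio scaling the log2 fold change was 0.17 and Elovl5 was no longer called (adjusted p = 0.098).

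Elovl6 (ENSMUSG00000041220, chr3:129532355-129638495, plus strand), which takes palmitate to stearate, was at 6.18, 5.90, 5.41, 0.27 and 4.58 FPKM in GDM replicates 1 to 5. Its levels in CTR replicates 1 to 5 were 4.07, 2.80, 2.27, 3.17 and 2.82 FPKM. A single GDM library, replicate 4, was far below all others, and the other 4 GDM libraries were all above the CTR libraries. With all libraries the log2 fold change was 0.23 (95% interval -0.72 to 1.19, adjusted p = 0.69, limma), and without GDM replicate 4 it was 0.70 (SE 0.13, adjusted p = 0.0021). That library was under 0.25 of the lowest other GDM library in 31 tested genes, and the same count over all 10 libraries, each within its group, was 17 to 32.

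Among the other genes of the elongation cycle 2 were called higher and 2 lower, of 8 tested and 11 listed. Elovl1, an elongase of very long saturated chains, and Hacd3, a dehydratase of the elongation cycle, rose with log2 fold changes of 0.47 (adjusted p = 0.0037) and 0.40 (adjusted p = 0.002). Tecr, the reductase of the last step, and Hacd1, the dehydratase of muscle, fell by 0.29 (adjusted p = 0.012) and by 0.36 (adjusted p = 0.014) on the log2 scale. After median ratio scaling these 4 kept their calls, Elovl1 only just (log2 fold change 0.30, adjusted p = 0.0498), and the elongase Elovl3 was called lower (from -0.39, adjusted p = 0.1, to -0.48, adjusted p = 0.0498). Hacd2 was called higher as well without CTR replicate 2 (from -0.03 to 0.24, adjusted p = 0.038).

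Of the desaturases, Fads1 was called higher, as were Fads2 and Fads3, while the pair Scd1 and Scd2 lay in opposite directions. Fads1 (ENSMUSG00000010663, chr19:10182888-10196877, plus strand), the delta-5 desaturase, was at 18.1, 23.5, 21.7, 19.2 and 15.8 FPKM in GDM replicates 1 to 5. In CTR replicates 1 to 5 it was at 14.3, 11.4, 10.2, 15.2 and 15.1 FPKM. The groups did not overlap, and GDM replicate 5 was only just above the highest CTR library. The log2 fold change was 0.54 (SE 0.13, adjusted p = 0.0071, limma), from 13.3 ± 2.29 to 19.7 ± 3.04 FPKM (SD, n = 5 each). Without the filter on low values the call was lost (adjusted p = 0.054). Fads2, the delta-6 desaturase that acts before Fads1, rose by 0.72 (adjusted p = 0.0021), and Fads3 by 0.54 (adjusted p = 0.0003). Of 5 further desaturation genes tested, of 8 listed, 2 were higher and 0 lower in limma, at the adjusted and at the unadjusted threshold, and the electron donors Cyb5a and Cyb5r3 were not called (adjusted p = 0.46 and 0.096). Cyb5a was called higher without CTR replicate 2 (log2 fold change from 0.23 to 0.45, adjusted p = 0.022). After median ratio scaling 2 were lower, namely Cyb5r3 (log2 fold change -0.36, adjusted p = 0.0071) and Cyb5b (-0.23, adjusted p = 0.032), and Fads2 and Fads3 remained higher.

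Scd1 (ENSMUSG00000037071, chr19:44394455-44407879, minus strand), the main stearoyl-CoA desaturase of liver and fat in adult mice, was at 3.85, 6.46, 5.99, 5.10 and 4.35 FPKM in GDM replicates 1 to 5. CTR replicates 1 to 5 were at 13.6, 130.3, 11.0, 8.35 and 7.99 FPKM. Every GDM library was below every CTR library, and CTR replicate 2 was far above the rest. The means were 5.15 ± 1.09 and 34.2 ± 53.8 FPKM (SD, n = 5 each), and with all libraries Scd1 was not called (log2 fold change -1.57, 95% interval -3.01 to -0.14, adjusted p = 0.07, limma), although the two-sided exact permutation test gave p = 0.0079. Without CTR replicate 2 the CTR mean was 10.2 ± 2.60 FPKM (SD, n = 4), and Scd1 was called lower, with a log2 fold change of -0.86 (SE 0.17, adjusted p = 0.0034, limma). The estimate was thus smaller and its error narrower without this library.

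Scd2 (ENSMUSG00000025203, chr19:44293674-44306864, plus strand), an isoform abundant in brain and in developing tissues of mice, was at 12.9, 106.7, 99.5, 72.1 and 78.9 FPKM in GDM replicates 1 to 5. The 5 CTR replicates, in order, were at 31.2, 21.4, 18.3, 30.1 and 29.0 FPKM. All GDM libraries except replicate 1 were above every CTR library, and replicate 1 was below all of them. With all libraries Scd2 was not called (log2 fold change 1.22, 95% interval 0.11 to 2.33, adjusted p = 0.069, limma). The two-sided exact permutation test gave p = 0.048 for Scd2 with all libraries and p = 0.079 without CTR replicate 2. Without GDM replicate 1 the GDM mean was 89.3 ± 16.5 FPKM (SD, n = 4), and Scd2 was called higher, with a log2 fold change of 1.75 (SE 0.18, adjusted p = 0.00017, limma). GDM replicate 1 was also the library with the highest level of the epidermal keratin gene Krt5 (147.8 FPKM, against 28.4 FPKM in GDM replicate 3 and at most 1.51 FPKM in the other 8 libraries), while Scd2 was at 99.5 FPKM in GDM replicate 3. The part of epidermal RNA in the low Scd2 value of replicate 1 was not tested.

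Scd1 and Scd2 lie on chromosome 19 within the same cluster and are similar in sequence, so reads may be shared between them. Of 4791 windows of 100 bases in the Scd1 transcripts 48 also occurred in Scd2 and 86 in Scd3. Scd3 itself was at 0.616 FPKM in CTR replicate 2 and at most 0.0415 FPKM in the other 9 libraries. Fads1 shared none of its 3717 windows with Fads2 or Fads3, and Elovl5 none of its 2893 with Elovl2 or Elovl7.

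**Figure D2:**
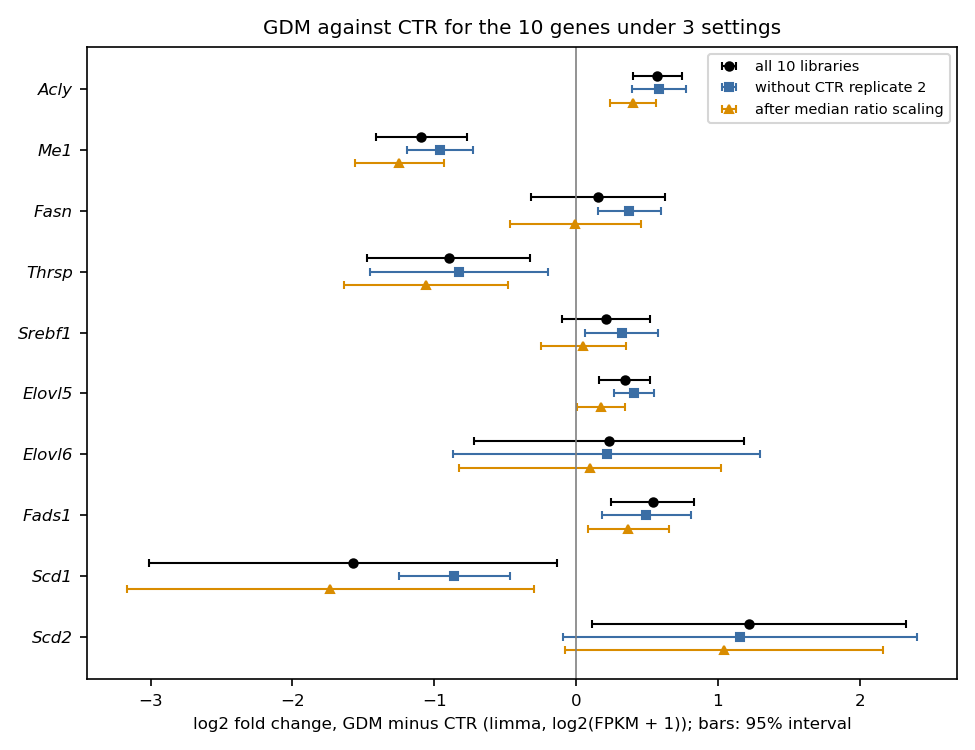
Log2 fold change of each gene, GDM minus CTR, with its 95% interval, for all 10 libraries (circles), without CTR replicate 2 (squares) and after median ratio scaling (triangles). Acly and Me1 lie clear of 0 in all 3 settings, the interval of Scd1 narrows without CTR replicate 2, and Fasn moves from 0.16 to 0.38 without that library and to -0.004 after scaling.

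CTR replicate 2 decided the call for 3 of the 10 genes. Without it 3 genes were lower (Me1, Thrsp and Scd1), 5 were higher (Acly, Elovl5, Fads1, Fasn and Srebf1), and Elovl6 and Scd2 did not pass, where 10.2% of 13220 tested genes were called lower and 34.7% higher. The median log2 fold change of the 10 genes was then 0.35, beside 0.16 over all tested genes. Scaling by the median ratio moved the median of all tested genes by -0.15, from 0.15 to 0.01, and gave 2 genes lower (Me1 and Thrsp), 2 higher (Acly and Fads1) and 6 not called, beside 18.9% of tested genes lower and 19.7% higher. After it the log2 fold change of Fasn was -0.004 (adjusted p = 0.99), and that of Srebf1 was 0.05 (adjusted p = 0.79). In 6 of the 10 genes the groups did not overlap, 3 with GDM lower and 3 with GDM higher, beside 7.43% and 27.2% of all tested genes.

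Within the CTR group, replicate 2 was the highest library for 6 of the 10 genes. Its level over the median of the other 4 CTR libraries was 13.5 for Scd1, 2.42 for Fasn, 1.56 for Me1 and 1.52 for Srebf1. It was 0.725 for Scd2, 0.778 for Fads1 and 0.936 for Elovl6, so the library was not higher throughout. Of all tested genes 6.37% reached a ratio of 1.5, against 4 of these 10. Acaca (1.92) and Slc25a1 (2.94) went with Fasn in this library, as did Hacd2 (3.06) and Nr1h3 (3.53), which were named after their values were seen.

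Fat cell markers were high in the same library. The 10 markers of fat cells summed to 2042 FPKM in CTR replicate 2, to 340.3 to 506.5 FPKM in the other CTR libraries and to 51.2 to 70.2 FPKM in the GDM libraries, and 9 of 9 tested markers fell in GDM muscle. Adipoq, the adiponectin gene, was at 253.5 FPKM in CTR replicate 2, at 36.1 to 57.1 FPKM in the other CTR libraries and at 0.868 to 2.89 FPKM in GDM libraries. Cfd was 6.56 times and Fabp4 3.41 times the median of the other CTR libraries in replicate 2, whereas the leptin gene Lep was at 0.221 of it. Lep was listed at the floor of 0.0001 FPKM in 3 GDM libraries. The fat cell markers therefore moved in the same direction as Me1, Thrsp and Scd1 and in the opposite direction to Acly, Elovl5 and Fads1, and their part in these differences was not tested. The 3 markers of brown fat summed to 9.99 to 11.6 FPKM in GDM and 9.61 to 33.1 FPKM in CTR libraries. Ucp1, the uncoupling protein of brown fat, was at 6.43, 5.32, 0.855 and 7.88 FPKM in CTR replicates 1, 2, 4 and 5, was listed at the floor in CTR replicate 3, and reached at most 0.104 FPKM in GDM libraries. Cidea, the one brown fat marker above the filter, was not called (log2 fold change -0.45, adjusted p = 0.12), and the part of these markers was not tested either.

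**Figure D3:**
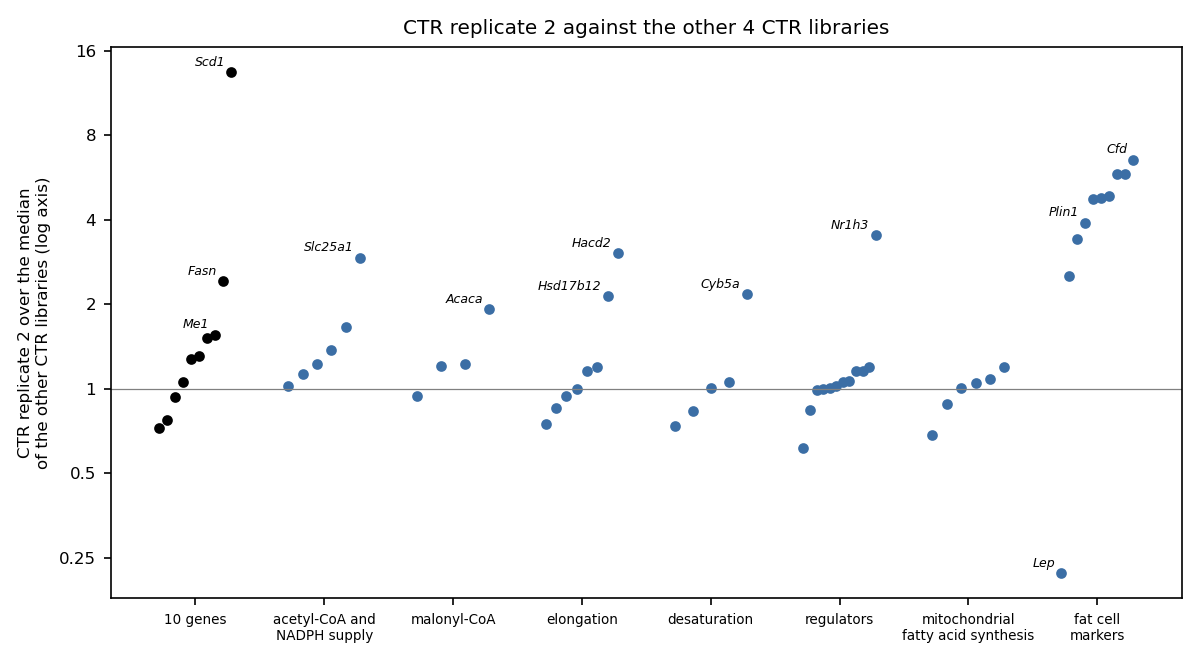
Level in CTR replicate 2 divided by the median of the other 4 CTR libraries, on a log axis, for the 10 genes (black) and for the tested genes of 6 pathway lists and the fat cell markers (blue), 1 point per gene. Scd1 stands at 13.5 and Fasn at 2.42, and all fat cell markers except Lep lie above 1.

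Markers of other tissues were checked in the same way. The 8 skeletal muscle markers summed to 16630 to 22920 FPKM in GDM and 28240 to 33920 FPKM in CTR libraries, which shows the labelled tissue in both groups. Of these 6 fell, and Myh3 and Myog rose. Keratin and sebaceous gland markers summed to 344.6 FPKM in GDM replicate 1 and 62.9 FPKM in GDM replicate 3, and to 2.85 to 4.61 FPKM in the other 8 libraries. The high sums came from the epidermal keratin genes Krt5, Krt14 and Krt10, at 147.8, 109.1 and 86.2 FPKM in GDM replicate 1. The remaining markers, which include those of the sebaceous gland, reached at most 1.17 FPKM in any library. Schwann cell markers summed to 75.9 to 149.0 FPKM in GDM and 106.2 to 305.8 FPKM in CTR libraries, with 4 of 8 tested genes lower. Liver markers, which would mark a lipogenic tissue outside muscle, summed to at most 1.24 FPKM in any library. Of 4 endothelial markers 3 fell, of 5 macrophage markers 1 and of 4 red blood cell markers 1. Without GDM replicates 1 and 3 and CTR replicate 2 together, a comparison added after seeing the data, 3 of the 10 genes were lower and 3 higher, beside 8.37% and 26.5% of 12705 tested genes. Depth was estimated at about 18.2 to 21.6 M fragments in GDM and 15.0 to 17.2 M in CTR libraries, so depth and group cannot be told apart.

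Ratios of related genes within a library do not depend on how that library was scaled. Scd1 over Scd2 was 0.299, 0.0605, 0.0602, 0.0707 and 0.0552 in GDM replicates 1 to 5 and 0.435, 6.09, 0.603, 0.278 and 0.276 in CTR replicates 1 to 5. Only GDM replicate 1, with its low Scd2, reached the CTR values. The difference in mean log2 ratio, GDM minus CTR, was -2.96 (two-sided exact permutation test, p = 0.024, adjusted over 6 ratios p = 0.071). Without CTR replicate 2 the difference was -2.16 (exact p = 0.048, adjusted p = 0.14). With 5 against 4 libraries the smallest exact p is 0.016, at which a single ratio alone could not pass after adjustment over 6. Fads1 over Fads2 was 1.08 to 1.31 in GDM and 1.23 to 1.41 in CTR libraries, a difference of -0.20 in mean log2 ratio (exact p = 0.024, adjusted p = 0.071), so Fads2 had the larger share in GDM libraries by a small amount that did not pass.

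Fasn over Acaca was 3.09 to 3.65 in GDM and 3.01 to 3.86 in CTR libraries, including CTR replicate 2, and the mean log2 ratios were equal to 2 decimals (exact p = 1). Fasn and Acaca, the next step before it, thus kept about the same ratio in every library, although both were high in CTR replicate 2. Acly over Acss2 had a difference of 0.35 (exact p = 0.071, adjusted p = 0.14), Srebf1 over Srebf2 of -0.29 (exact p = 0.33, adjusted p = 0.49) and Elovl6 over Elovl5 of -0.35 (exact p = 0.98, adjusted p = 1). None of the 6 ratios passed after adjustment, and 2 were at an unadjusted exact p under 0.05.

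**Figure D4:**
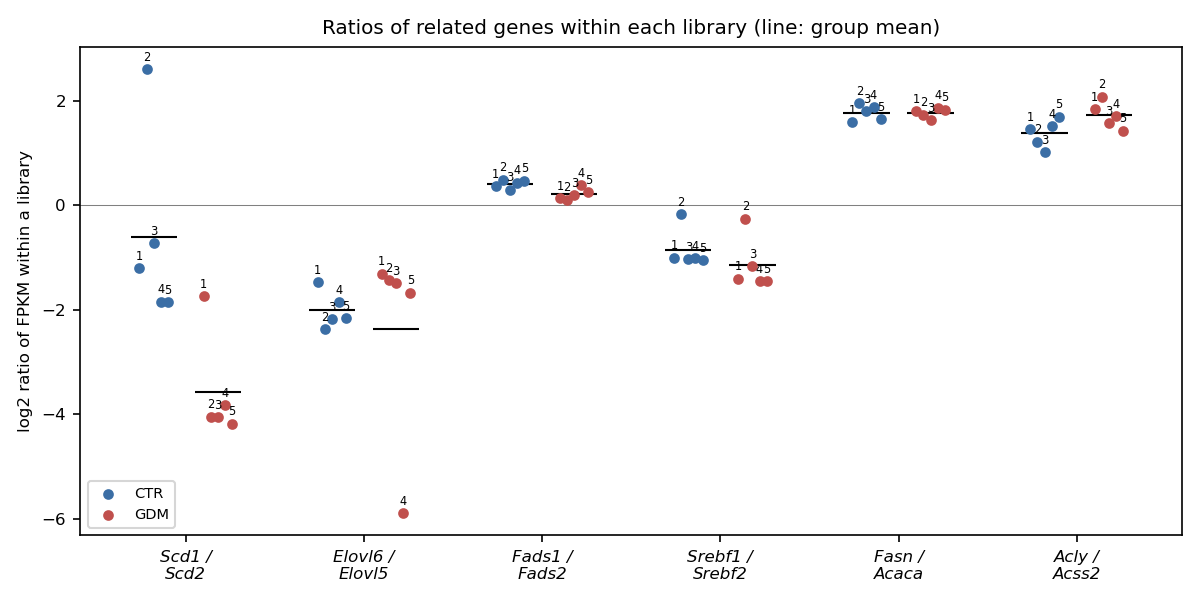
Log2 ratio of FPKM of 6 pairs of related genes in each library, with replicate numbers beside the points and the group mean as a line. Scd1 over Scd2 is lower in 4 GDM libraries than in all CTR libraries, Fasn over Acaca spans 3.09 to 3.65 in GDM and 3.01 to 3.86 in CTR libraries before the log, and GDM replicate 4 stands apart for Elovl6 over Elovl5.

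Mitochondria make fatty acids by a separate pathway, which supplies lipoic acid. Of its 6 genes 4 fell, namely Cbr4 (log2 fold change -0.54, adjusted p = 0.00043), Mcat (-0.44, adjusted p = 0.0026), Ndufab1 (-0.22, adjusted p = 0.017) and Mecr (-0.26, adjusted p = 0.02). In limma 0 rose, at the adjusted or the unadjusted threshold. These counts stand beside 10.9% of all tested genes called lower and 35.1% called higher. Ndufab1 encodes the acyl carrier protein of this pathway and is also a subunit of respiratory complex I. Over all 6 pathway lists, 41 of 48 genes were tested, of which 9 were lower, 7 higher and 25 not called, beside the same shares. Their median log2 fold change was -0.03, beside 0.15 over all tested genes. Without CTR replicate 2 the counts were 10 lower and 9 higher, beside 10.2% and 34.7% of all tested genes. After median ratio scaling they were 15 and 4, beside 18.9% and 19.7%.

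The 3 genes of the widest range over libraries were Scd1, Scd2 and Elovl6, with ranges of 4.76, 2.96 and 2.50 on the log2(FPKM + 1) scale. The closest tested genes by root mean square distance of centred log2(FPKM + 1) over the 10 libraries were Mgst1 (0.45), Ephx2 (0.50) and Trf (0.50) for Scd1. All 3 were highest in CTR replicate 2, and Trf, the transferrin gene, was at 222.9 FPKM there and at 7.15 to 36.3 FPKM elsewhere. The closest to Scd2 were Dpysl5 (0.61), 1810026B05Rik (0.63) and Snord80 (0.64), at larger distances. The closest to Elovl6 were Gm6741 (0.23), Rab22a (0.26) and Nptxr (0.27), and all 3 were lowest in GDM replicate 4, with 3.08 FPKM of Rab22a there and 9.80 to 14.0 FPKM elsewhere. These genes were picked by their distance over the same libraries, so an outlying library shared with Scd1 or Elovl6 follows from the choice.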

How the data were processed

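RNA-seq was performed on 5 GDM and 5 CTR samples of foetal limb muscle. Poly(A) RNA was sequenced from both ends with reads of 150 bases, after dUTP marking of the second strand. The authors deposited FPKM per gene and library, made with HISAT2 2.0.4 and StringTie 1.3.4d. The genome is mm10 in the submitters' notes and Ensembl v101 in the methods. Strand use in counting is not stated. The floor for genes with no signal is 0.0001. The deposited fold change (a ratio), its log2 value, and the p-value and q-value come from the authors' own comparison and were not used here.

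The test was limma 3.58.1 with trend and robust options, run in R 4.3.3 on log2(FPKM + 1) without covariates. It covered the 13363 genes that reached 1 FPKM in 5 or more libraries, and p was adjusted over these by the Benjamini-Hochberg method. With the offset of 1, fold changes at low FPKM come out too small. Log2 fold changes are GDM minus CTR. Single genes and ratios of 2 genes were compared with two-sided exact permutation tests (scipy 1.17.1), whose smallest p is 0.0079 for 5 against 5 and 0.016 for 5 against 4 libraries. Groups were taken from the titles of the samples. Coordinates are from GENCODE vM21 (GRCm38) by gene identifier, and promoters are from RefSeq. Depth is not given by the files and was estimated from the lowest values of single-transcript genes, so no counting intervals are given.

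All 10 genes are named, of each pathway list up to 4 genes with the smallest adjusted p, and of each marker list up to 3 genes with the highest mean. Me3, Elovl3, Hacd2, Cyb5b, Nr1h2, Nr1h3, Scd3 and the markers Lep, Myh3 and Myog lie outside this rule and were picked with their values in view. The 10 genes and all lists were chosen with earlier results of these data known. Alternatives changed the pseudocount (0.1), the filter (none, or 1 FPKM in every library) or both, the scaling (median ratio or quantile), added a block for the replicate number, or left out single libraries. Leaving out 3 libraries together was chosen after seeing the data. The fit was checked on simulated data.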

Additional observations from a re-analysis of the deposited data

Results flagged for a closer look

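In 10 of 32 groups of 5 libraries tested, a single library lay apart from its group by Dixon's test with a critical value of 0.71, where chance gives about 1 in 20. On the log2(FPKM + 1) scale CTR replicate 2 was high for Scd1 (7.04), Srebf1 (3.51) and Thrsp (4.26). GDM replicate 1 was low for Scd2 (3.8), and GDM replicate 4 was low for Elovl6 (0.34). Among the log2 ratios within a library, Scd1 over Scd2 was apart in GDM replicate 1 (-1.74) and in CTR replicate 2 (2.61), and Elovl6 over Elovl5 in GDM replicate 4 (-5.89). Srebf1 over Srebf2 was apart in GDM replicate 2 (-0.26) and in CTR replicate 2 (-0.17), both above the other libraries of their groups. Ratios and single genes share their values, so these are not separate observations.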

How the results depend on the processing

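Acly and Me1 kept their direction and their call in all 18 alternatives, with log2 fold changes of 0.40 to 0.61 and of -1.25 to -0.96. Median ratio scaling gave 2529 genes lower and 2630 higher over the whole table, and quantile normalization 2343 and 2881, against 1451 and 4691 as reported. The lower calls among the 10 genes went from 2 to 1 without the filter on low values, with either pseudocount, since Thrsp did not pass. The higher calls went from 3 to 5 without CTR replicate 2, and leaving out each library in turn gave 3 to 5 higher and 2 to 3 lower calls. Fasn reversed to -0.004 after median ratio scaling. Elovl6 reversed to -0.14 (adjusted p = 0.87, range over its alternatives 0.0021 to 1) without GDM replicates 1 and 3 and CTR replicate 2, and Fads1 was not called there (adjusted p = 0.067). With 1 FPKM required in every library Elovl6 could not be tested. For Elovl6 over Elovl5 the difference in log2 ratio was -0.62 to 0.53 when each library was left out, positive without GDM replicate 4. Same-numbered samples did not deviate together (correlations of -0.07 to -0.02), and with the replicate number as a block 1269 genes were lower and 4171 higher, of the 10 genes again 2 and 3. Beyond what is stated, the cause was not tested. Genes of low FPKM such as Mlxipl rest on few fragments, and the depth estimate is approximate.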
